A study of Mus musculus with 12 samples.

Results

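IL-10+ B cells of mice allergic to house dust mite (HDM) were compared with the IL-10- B cells sorted beside them. The comparison set 3 IL-10+ HDM arrays against 3 IL-10- HDM arrays, 6 of the 12 one-colour expression arrays of the series, chosen by the sample titles. The other 6 arrays held the same sort from control mice, again 3 against 3. All mice were female and of the Balb/c strain, their age is not given in the sources used here, and the tissue was spleen. In all groups the purified B cells received a CD40 agonist for 2 days and LPS for the last 5 hours, so every array shows activated, cultured cells. A secretion assay, which captures a released cytokine on the surface of the cell that made it, marked IL-10, and cells with and without it were sorted by flow cytometry. Nothing in the labels ties the 3 samples of a group to separate mice or cultures, so p-values measure only the spread between these samples, which may be technical.

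IL-10 is a cytokine that restrains inflammation, largely by acting on myeloid and T cells through a receptor that signals by STAT3. B cells that make it are known as regulatory B cells. No single transcription factor defines them, and plasmablasts, B-1 cells and marginal zone B cells are all known to produce IL-10 after stimulation through CD40 or Toll-like receptors. CD9, a tetraspanin of the cell surface, is named in the series title as a marker of such cells.

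Each level is a log2 ratio of the processed signal to the 75th percentile of gene spots on its array, so that 0 is the level of that percentile. Differences are IL-10+ minus IL-10- on the log2 scale, with standard errors (SE) and adjusted p from limma. The scanner marked 57.7% to 62.1% of spots as well above background on the IL-10+ HDM arrays, 57.6% and 56.5% on IL-10- HDM arrays 1 and 2, and 47.7% on IL-10- HDM array 3. Across genes above background on all 6 arrays, which are not independent replicates, the IL-10+ arrays correlated with each other at 0.965 to 0.967 and the IL-10- arrays at 0.859 to 0.939, the highest being arrays 1 and 2. All 3 IL-10+ HDM arrays lay on 1 slide and all 3 IL-10- HDM arrays on another, so sort and slide cannot be told apart in HDM mice. B cell identity was present on both sides: the defining markers Ms4a1, Cd79a, Cd79b, Pax5, Cd22 and Cd74 were above background on all 6 HDM arrays, except Cd79a, which stood at -5.87 on IL-10- HDM array 3.

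Il10, the transcript behind the sort, was high on every IL-10+ array. It (10 spots of 1 probe, mm9 chromosome 1, 132920943 to 132921002) stood at 6.89, 6.97 and 6.42 on the IL-10+ HDM arrays and at -0.09, -0.05 and -5.43 on the IL-10- HDM arrays. The groups were far apart, and the lowest value, on IL-10- HDM array 3, was not well above background. The difference was 8.61 (SE 1.18, adjusted p = 0.0259), or 6.83 without that array (adjusted p = 0.000886). Its highest adjusted p in the fits that left out 1 array was 0.122, without IL-10+ HDM array 2. With slide as a block it was 7.67 (SE 2.21, adjusted p = 0.447). Cd9 (1 spot, mm9 chromosome 6, 125410387 to 125410446) stood at 1.02, 1.44 and 0.69 on the IL-10+ and at -2.46, -2.41 and -4.70 on the IL-10- arrays. Again the groups did not overlap and IL-10- HDM array 3 was lowest, not well above background. Cd9 was not called: its difference was 4.24 (SE 0.80, adjusted p = 0.0831), or 3.48 when that array was omitted. For Il10 and Cd9 alike, an exact two-sided permutation test of 3 against 3 arrays gave p = 0.1, the smallest it can give.

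**Figure D1:**
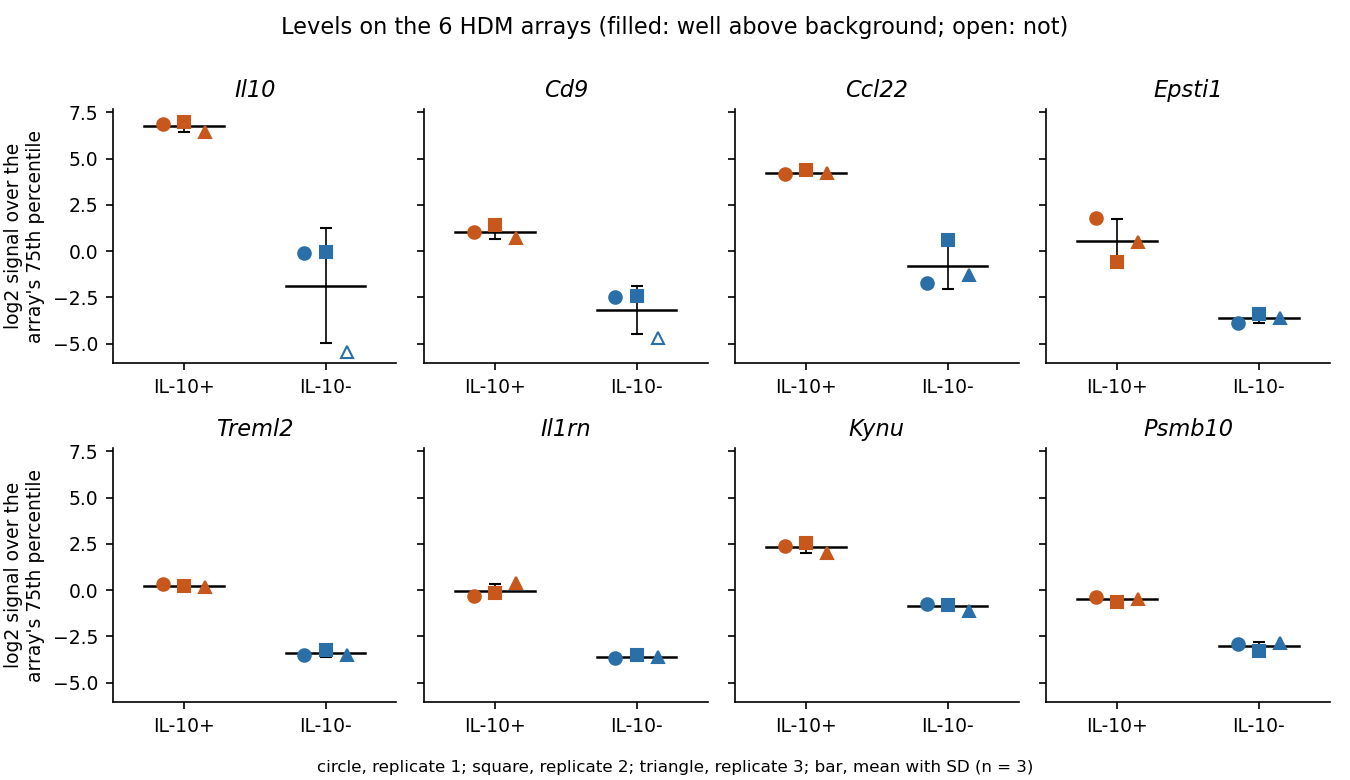
Level of Il10, Cd9 and the 6 called genes with a symbol that were above background on all HDM arrays, per array (log2 signal over the array's 75th percentile), with mean and SD, n = 3. In every panel the 3 IL-10+ values lie above the 3 IL-10- values, and the open symbols of Il10 and Cd9 mark IL-10- HDM array 3.

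Of 24939 genes tested, 42 were called at an adjusted p under 0.05, which is 0.168%; 41 were higher and 1 was lower in IL-10+ cells (0.164% and 0.00401%). The lower one carries only a position name (its probe lies on mm9 chromosome 5, 14937911 to 14937970) and differed by -4.25. Genes fell into classes by detection. In all, 15509 were above background on all 6 HDM arrays, here called bright on both sides, and 355 were above background on all arrays of one side and none of the other, here called at the floor. Another 8947 were mixed and 128 were dim on both sides. Calls were made for 8 bright genes, all higher (0.0516%), 25 floor genes (7.04%) and 9 mixed genes (0.101%). Floor genes differ by construction, so their share is no measure of how often genes changed. The floor was not even: 264 of the 355 were missing on the IL-10- side and 91 on the IL-10+ side, and 2262 mixed genes were above background on every HDM array but IL-10- HDM 3. The count of calls moved with single arrays. It was 22, 13 and 5 without IL-10+ HDM arrays 1, 2 and 3, 211, 112 and 12 without IL-10- HDM arrays 1, 2 and 3, and the HDM count became 74 and 23 when IL-10+ arrays 2 and 3 of the control mice were omitted. With slide as a block, which rests on the IL-10- control arrays as the only group on both slides, no gene passed in limma (0 called, and 2017 under 0.05 before adjustment). In that fit all 42 called genes kept their sign at an unadjusted p under 0.05, with a median size of 4.03 against 4.42 and a median SE of 0.99 against 0.57.

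**Figure D2:**
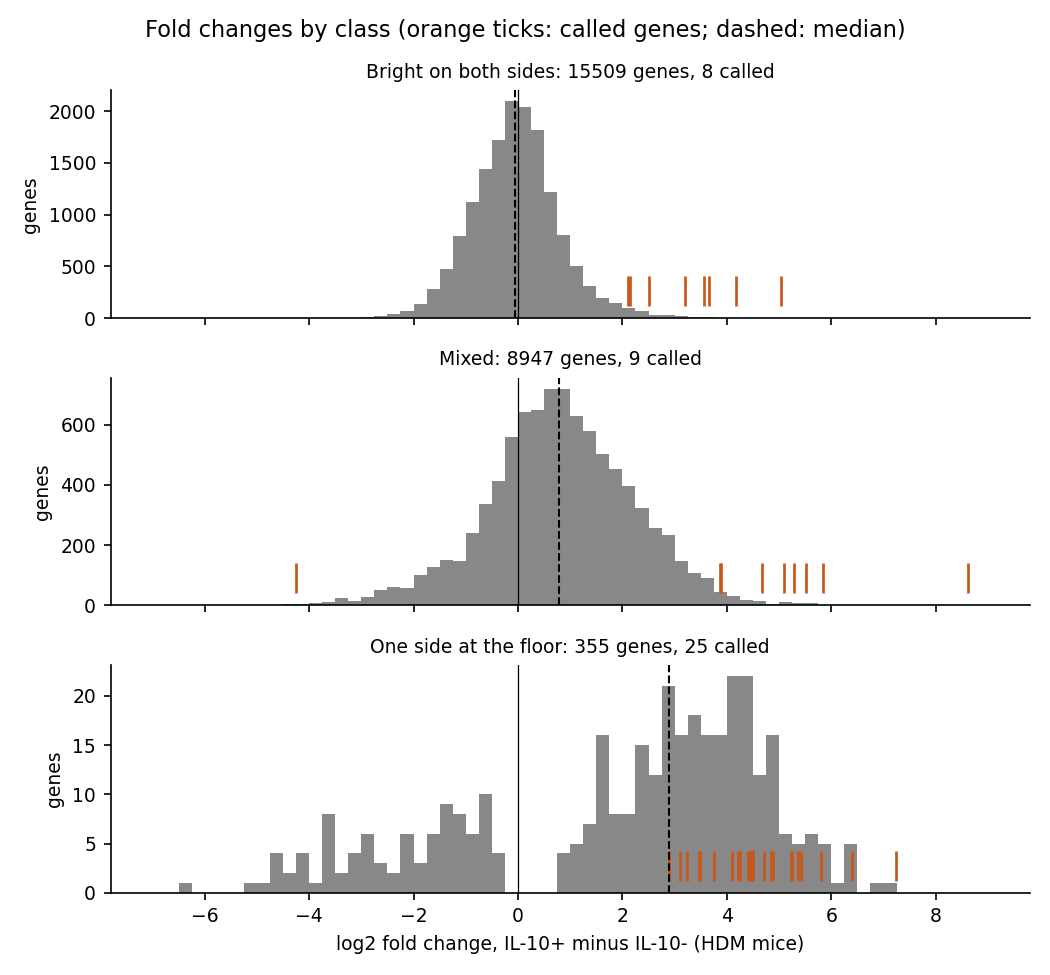
Histograms of log2 fold changes (IL-10+ minus IL-10-, HDM mice) by detection class, with the number of genes on the vertical axis, called genes as orange ticks and the class median dashed. Bright genes centre at -0.06, mixed genes at 0.78 and floor genes at 2.89, and the 8 bright calls all lie to the right.

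Among the bright genes, those called higher in IL-10+ cells included a chemokine, a cytokine antagonist, a receptor and an enzyme of tryptophan breakdown. Ccl22 (mm9 chromosome 8, 97274709 to 97274768), a chemokine that draws CCR4+ T cells, stood at 4.16, 4.38 and 4.21 on the IL-10+ and at -1.72, 0.62 and -1.28 on the IL-10- arrays. IL-10+ cells were uniform and IL-10- array 2 was the highest of its side, with no overlap. Ccl22 was 32.9-fold higher (log2 5.04, SE 0.58, adjusted p = 0.0127). Il1rn (mm9 chromosome 2, 24205094 to 24205153), which encodes the antagonist of the IL-1 receptor, stood at -0.31, -0.17 and 0.41 against -3.67, -3.50 and -3.60. All IL-10- arrays lay within a narrow band well under the IL-10+ arrays. It was 11.8-fold higher (log2 3.57, SE 0.51, adjusted p = 0.0299).

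Treml2 (mm9 chromosome 17, 48448517 to 48448757), a TREM-like receptor of myeloid and lymphoid cells, stood at 0.32, 0.21 and 0.17 against -3.51, -3.21 and -3.52, a 12.5-fold difference (log2 3.65, SE 0.57, adjusted p = 0.0432). Both sides were tight. Kynu (mm9 chromosome 2, 43459748 to 43459807), the kynureninase of tryptophan breakdown, stood at 2.37, 2.56 and 2.00 against -0.75, -0.78 and -1.10. It was 9.14-fold higher (log2 3.19, SE 0.33, adjusted p = 0.00924), and a second probe of it differed by 2.10. Kynu was the bright gene that stayed called in all 12 fits that left out 1 array, with an adjusted p of 0.0108 to 0.0446.

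Psmb10 (mm9 chromosome 8, 108459677 to 108459736), a catalytic subunit of the immunoproteasome, stood at -0.36, -0.65 and -0.49 against -2.90, -3.26 and -2.84, with no overlap. It was 5.66-fold higher (log2 2.50, SE 0.37, adjusted p = 0.0396). Epsti1 (mm9 chromosome 14, 78332038 to 78339727), an interferon-inducible gene, was the most spread on the IL-10+ side, at 1.79, -0.60 and 0.49, against -3.89, -3.37 and -3.61. It was 18.1-fold higher (log2 4.18, SE 0.58, adjusted p = 0.0259). The remaining calls were a transcript named by position (probe at mm9 chromosome 10, 93871664 to 93871723; difference 2.10, SE 0.32) and the clone TC1632043 (2.14, SE 0.34), both named here after their values were seen. Ccl22, Epsti1, Treml2, Il1rn and Psmb10 each lost their call in some omissions: their highest adjusted p was 0.068 and 0.16 without IL-10+ HDM 2 for Ccl22 and Treml2, 0.0998 and 0.134 without IL-10+ HDM 3 for Epsti1 and Il1rn, and 0.143 without IL-10+ HDM 1 for Psmb10. The bright count itself was 2, 2 and 1 without IL-10+ HDM arrays 1, 2 and 3, 56, 25 and 1 without IL-10- HDM arrays 1, 2 and 3, and 5, 13 and 2 without IL-10+ control arrays 1, 2 and 3.

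The next bright genes by p on the higher side were not called and are given as values. Plbd1, a phospholipase B-like protein, stood at 0.13, 0.42 and 0.08 against -3.02, -3.06 and -3.15 (difference 3.29, adjusted p = 0.0708). Vamp8, a SNARE of endosome and granule fusion, stood at 0.19, -0.29 and -0.01 against -3.44, -3.93 and -2.74 (difference 3.33, adjusted p = 0.109). Adgre5, the adhesion receptor CD97, stood at -0.05, -0.52 and -1.24 against -3.96, -3.54 and -3.64 (difference 3.11, adjusted p = 0.0762). The rule that named these genes kept only those without overlap (9.31% of bright genes on the higher side). Tet3, which oxidises 5-methylcytosine in DNA, differed by 2.49 (adjusted p = 0.0621, and its 2 other probes by 1.00 and 1.53). Mri1 of the methionine salvage pathway differed by 2.57 (adjusted p = 0.0726), and Rabgap1, a GTPase-activating protein, by 1.67 (adjusted p = 0.109), with its 2 other probes at 0.01 and 0.77.

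On the lower side limma called 0 bright genes, although 1222 (7.88%) had an unadjusted p under 0.05, against 729 (4.7%) on the higher side. This split depended on the scaling: it was 3684 lower and 105 higher in the deposited value table, which shifted the median of bright genes to -0.86, and 430 lower and 1832 higher with the 75th percentile over detected probes, which shifted it to 0.38. The main median was -0.06. The smallest p belonged to Il21r, the receptor subunit for IL-21, a T cell cytokine that acts on B cells. It stood at 2.36, 2.54 and 1.80 on the IL-10+ and at 4.28, 3.89 and 4.08 on the IL-10- arrays. The sides did not overlap and were each tight (difference -1.85, SE 0.31, adjusted p = 0.0606).

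Stard3, a late endosomal protein that binds cholesterol, stood at 0.59, -0.65 and 1.27 against 3.13, 3.08 and 4.38 (difference -3.13, adjusted p = 0.068). Dnajb9, an ER co-chaperone of BiP, stood at 2.49, 1.86 and 2.23 against 3.95, 3.76 and 3.74 (difference -1.62, adjusted p = 0.128). Its difference in control mice was -1.69. Acsl3, which activates long-chain fatty acids, stood at -2.63, -3.21 and -2.61 against -1.12, -1.69 and -1.15 (difference -1.49, adjusted p = 0.128). Here too the rule kept only genes without overlap, 16.7% of bright genes on the lower side. In several others the IL-10- mean leaned on array 3: Mrpl15 of the mitochondrial ribosome stood at 2.79, 2.79 and 4.22 on the IL-10- arrays against 0.69 to 0.98. The nucleoporin Nup35 stood at 0.07, -0.04 and 1.38 against -2.69 to -1.71. Selenoo, a mitochondrial selenoprotein, differed by -2.30, or -1.78 with that array left out. Nrros, an ER and surface protein known from myeloid cells, differed by -2.10, and by -1.73 without it. The deubiquitinase Josd2 differed by -1.97 and Ocel1 by -1.63. Rhob, a small GTPase, differed by -2.44 and Slc25a51, a mitochondrial NAD+ carrier, by -2.57, but another probe of each gave 1.17 and 0.17.

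Genes at the floor were called on the IL-10+ side alone, 25 of 355, and for these only a lower bound of the fold can be given: the IL-10+ mean over the background limit of the IL-10- arrays. Jchain, the joining chain of polymeric IgM and IgA, stood at 1.33, 1.85 and 2.53 on the IL-10+ arrays, while none of the 3 IL-10- arrays was above background. It was at least 71.2-fold higher (adjusted p = 0.0145; omitting IL-10+ HDM array 3 made it 0.0788). The IL-10+ arrays lay within a narrow range, far above the limit. An immunoglobulin heavy chain segment, Ighv10-3, was also called (adjusted p = 0.0127) and is named here after its values were seen. Segments of this kind resemble each other, so its probe may read related segments. Csf2rb2, the mouse-specific beta subunit of the IL-3 receptor, stood at -2.14, -0.29 and -1.64 and was at least 7.42-fold higher (adjusted p = 0.0140; omitting IL-10- HDM array 3 made it 0.0592). Its other probe differed by 3.42. Ptpn22, a phosphatase that limits antigen receptor signals, stood at -1.43, -1.59 and -2.81 and was at least 4.94-fold higher (adjusted p = 0.0432; omitting IL-10+ HDM array 2 made it 0.167).

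Transcription factors were among these calls. Ikzf4, an Ikaros-family factor known from regulatory T cells, stood at -1.33, -0.24 and -0.84 and was at least 10.9-fold higher (adjusted p = 0.00925), with another probe at 1.75. Max, the DNA-binding partner of Myc, stood at -1.46, -2.32 and -2.74 and was at least 4.22-fold higher (adjusted p = 0.00924), here named after its values were seen. Ikzf1, which encodes Ikaros, was mixed: 1.06, 1.77 and 1.43 on the IL-10+ arrays against -4.36, -3.08 and -5.85, of which 1 was above background (difference 5.85, SE 0.60, adjusted p = 0.00924). The 2 other Ikzf1 probes differed by 1.56 and 2.01, so the probes shared the direction and not the size. Without IL-10+ HDM array 3 the adjusted p was 0.0507 for Ikzf1 and for Ikzf4. Max, Tsen54 and Akap1, with the bright Kynu, were the 4 genes called in all 12 fits that left out 1 array.

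The other named calls had varied roles. Tsen54, a subunit of the tRNA splicing endonuclease, stood at 0.99, 0.13 and 0.27 and was at least 26.2-fold higher (adjusted p = 0.00279), but its other probe differed by -0.67. Micall1, an endosomal recycling protein, stood at -1.41, 0.23 and 0.07 and was at least 14.7-fold higher. Ccdc32 was at least 12.8-fold higher, with its other probe at 1.70. Gin1 was at least 8.35-fold higher, and Nckap1, a subunit of the WAVE actin regulator, at least 8.20-fold, with its other probe at 3.06. Adjusted p ran from 0.0143 to 0.0432 for these 4. Akap1, a mitochondrial anchor of protein kinase A, was mixed at 1.97, 1.96 and 1.10 against -2.59, -4.20 and -4.04, of which 1 was above background (difference 5.29, SE 0.53, adjusted p = 0.00924). Bet1l, a Golgi SNARE, stood at 0.87, 0.85 and 0.28 against -2.28, -3.89 and -3.46, of which 2 were above background (difference 3.88, SE 0.53, adjusted p = 0.0259). Micall1, Ccdc32, Gin1, Nckap1 and Bet1l were called in 9, 7, 7, 3 and 7 of the 12 fits without 1 array. The count of floor calls was 12, 8 and 2 without IL-10+ HDM arrays 1, 2 and 3, 7 without IL-10- HDM array 3, and 45 and 15 without IL-10+ control arrays 2 and 3.

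Known regulatory B cell genes split by detection. Of 27 genes on that list 25 were measured and 0 were called in limma. Before adjustment 7 had a p under 0.05, all higher, beside 7.71% of genes tested. Its 12 bright members had a median of 0.31, against -0.06 for all bright genes, and -0.03 without IL-10- HDM array 3. The costimulatory ligand Cd80 was the clearest bright one, at 2.85, 3.23 and 3.16 against 1.82, 2.62 and 2.07 (difference 0.91, adjusted p = 0.307). These values are of its brightest probe, and its other probe differed by 6.48, so the probes shared the direction and not the size. Cd1d1, which presents lipids, stood at -2.63, -1.22 and -2.09 against -2.68, -3.08 and -2.29, and the surface glycoprotein Cd5 at -1.48 to -2.02 against -0.53 to -3.94, both with overlap between the sides. The inhibitory receptors and enzymes with large differences were dim on the IL-10- side and are named here after their values were seen. Nt5e, which encodes the adenosine-forming enzyme CD73, stood at -0.99, -1.73 and -0.71 with no IL-10- array above background (adjusted p = 0.0644). Ctla4 stood at 1.35, 2.63 and 2.24 against -1.94, -4.45 and -5.50, of which 1 was above background (difference 6.03, adjusted p = 0.0842). Tigit stood at 0.76, 0.70 and 1.35 against -0.51, -6.26 and -4.70 (difference 4.76, adjusted p = 0.251).

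In the IL-10 family, Il10, the transcript behind the sort, was the 1 member called of 13 measured, beside 0.168% of all genes tested. Il19, its chromosomal neighbour and a cytokine of the family, stood at -0.51, 0.40 and 0.23 on the IL-10+ arrays and was above background on no IL-10- array (adjusted p = 0.0708). The receptor and signalling genes had smaller differences: Il10rb differed by 0.60 (negative in the deposited value table and with slide as a block), Stat3 by 0.19 and Jak1 by -0.30. Of 27 transcription factors linked to IL-10, 0 were called. Of the 17 bright ones 5 were lower and 1 higher at an unadjusted p under 0.05, beside 7.88% and 4.7% of all bright genes, with a median of -0.34. Stat5a stood at 2.29, 2.01 and 2.18 against 3.20, 3.26 and 3.79 (difference -1.26, adjusted p = 0.194). Bhlhe40, a repressor of Il10 in T cells, stood at 0.60, -0.21 and -0.16 against 0.44, 2.28 and 2.65 (difference -1.71, adjusted p = 0.273), with overlap through IL-10- array 1. Nfkb1 differed by 0.74, or -0.18 as the mean of its probes and -0.06 in the deposited value table. Irf4, which with Blimp1 drives plasma cell formation, stood at 6.56, 6.32 and 6.57 against 6.99, 7.12 and 8.24, and Prdm1, the gene of Blimp1, at 1.12, 1.58 and 1.35 against 1.52, 0.89 and 0.47.

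The plasma cell list had 1 called member, Jchain, of 24 measured, beside 0.168% of all genes tested. Its 15 bright members had a median of 0.20. Ell2, an elongation factor that favours secreted immunoglobulin transcripts, stood at 3.44, 3.08 and 2.98 against 2.23, 2.14 and 0.41. Mzb1, an ER protein of antibody-secreting cells, was mixed at 0.05, -1.69 and -1.08 against -5.90, -3.07 and -5.19, and Sdc1, the plasma cell marker CD138, was above background on 1 array of each side. In this bulk measurement, fewer cells of a type and less RNA per cell cannot be told apart. Of the 20 measured B-1 cell genes 1 was called, Ptpn22, beside 0.168% of all genes tested. Before adjustment 9 were higher and 0 lower at a p under 0.05 in limma, beside 7.71% and 5.58% of genes tested. The median over the 20 was 1.2, against 0.16 for all genes tested, and it includes members not detected on every array. Bright members had a median of 0.11, with Cd300lf at 1.59, 1.84 and 1.44 against 0.16, 0.04 and 0.31 (difference 1.45, adjusted p = 0.144).

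Chemokines had the highest median among the lists of B cell functions. Of 14 bright members 10 were above 0, with a median of 0.50, and 4 separated upward without overlap, against 9.31% of bright genes. In control mice the same members had a median of -0.11 with 10 of 14 below 0, and quantile normalization gave 0.21 in HDM mice with 6 below 0. Ccl22 was the 1 call among 17 measured members, beside 0.168% of all genes tested. Ccl17, which shares the receptor of Ccl22, stood at -1.13, -0.70 and 0.63 against -3.41, -3.73 and -1.50 (difference 2.48, adjusted p = 0.396). Ccl3, an inflammatory chemokine, ran the other way, at 5.11, 4.51 and 4.66 against 5.87, 5.61 and 6.16 (difference -1.12, adjusted p = 0.257). The costimulatory list had a bright median of 0.20, and limma called 0 of its 30 measured members. Before adjustment 5 were higher and 1 lower at a p under 0.05, beside 7.71% and 5.58% of genes tested. Tnfsf9, the ligand of 4-1BB, stood at 2.15, 2.06 and 2.17 against 1.37, -1.60 and -3.47 (difference 3.36, adjusted p = 0.299). The list of chemokine receptors and homing genes had a bright median of -0.10, with 8 of 16 below 0. Its member Selplg, the selectin ligand PSGL-1, stood at 0.51, -0.42 and -0.57 against -1.55, -2.48 and -2.11 (difference 1.89, adjusted p = 0.11). The medians of the chemokine and costimulatory lists were positive in 21 of 22 settings that kept the same probes, the deposited value table, whose shift covers all genes, being the other.

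Lists of growth and metabolism leaned the other way among bright genes, with 0 calls in any of them. Cholesterol biosynthesis had the lowest median among the lists of cell functions, -0.91, with 22 of 25 bright members below 0 against 53.2% of all bright genes, and 14 of the 25 at an unadjusted p under 0.05 lower against 7.88%. In 14 of 25 all IL-10+ arrays lay under all IL-10- arrays, against 16.7% of bright genes. Sqle, the squalene epoxidase, stood at -0.07, 0.34 and 0.44 against 2.38, 1.48 and 3.58 (difference -2.25, SE 0.52, adjusted p = 0.152). Hmgcs1 at the entry of the pathway stood at 3.31, 3.15 and 3.93 against 4.66, 4.67 and 5.64 (difference -1.53, adjusted p = 0.247). In both, all IL-10- arrays were higher, array 3 most. The regulator Insig1 stood at 2.59, 2.93 and 3.20 against 4.02, 4.14 and 3.84 (difference -1.09, adjusted p = 0.28). The 3 bright members above 0 were Ggps1 at 0.02, Nsdhl at 0.13 (its other probe at -3.38) and Mvk, the mevalonate kinase, at 0.57. The list median was -0.91 without IL-10- HDM array 3, -1.55 with slide as a block and -0.38 in control mice, and it was negative in all 22 settings that kept the same probes. With the mean of each gene's probes it was -0.82, with 22 of 25 members below 0. Insig2, the paralogue of Insig1, was mixed and differed by 3.45 (adjusted p = 0.259, named after its values were seen).

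**Figure D3:**
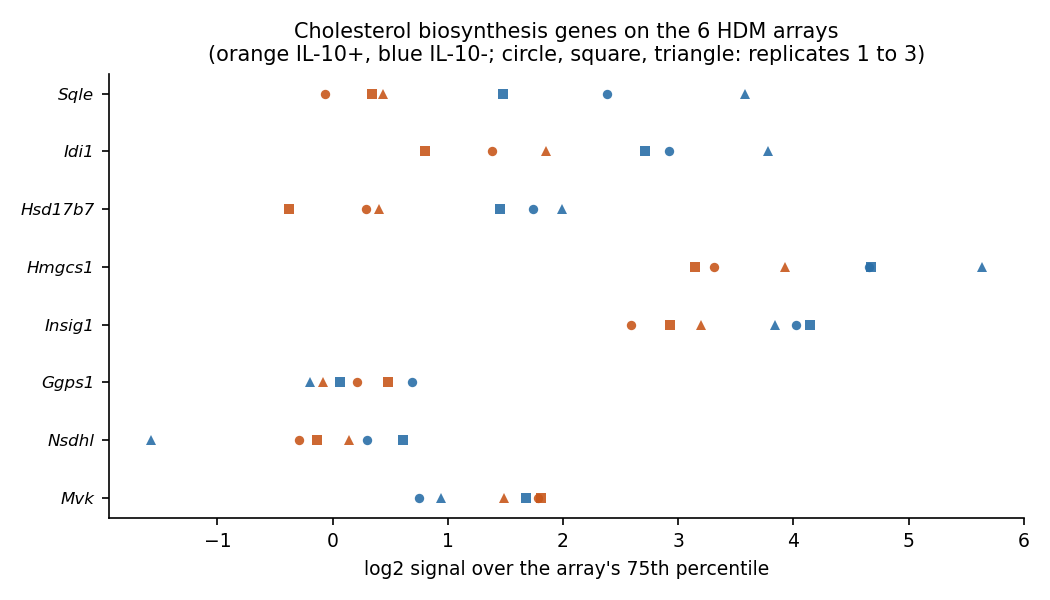
Level of 8 bright cholesterol biosynthesis genes, those given with values in the text, on each HDM array (log2 signal over the array's 75th percentile), ordered by difference. For Sqle, Hmgcs1, Idi1, Hsd17b7 and Insig1 all blue IL-10- symbols lie to the right of the orange IL-10+ symbols, and for Nsdhl, Ggps1 and Mvk the colours mix. Each gene is shown by its brightest probe, and other probes of Hmgcs1 (0.60) and Hsd17b7 (0.95 and 1.28) differed the other way.

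Sterol genes are known targets of the factor SREBP2, which acts with the CCAAT-binding factor NF-Y, so the windows before their starts are shown for 3 members whose IL-10- arrays were all higher by their brightest probe. The windows are the 250 bases before the RefSeq start, build GRCm38.p6, 5′ to 3′ on the gene's strand: Hmgcs1 at chr13:119690101-119690350 (plus), Idi1, the isopentenyl diphosphate isomerase, at chr13:8885356-8885605 (plus), and Hsd17b7, a sterol reductase, at chr1:169969206-169969455 (minus). Capitals mark CCAAT on either strand and the sterol element TCACNCCAC.
Hmgcs1: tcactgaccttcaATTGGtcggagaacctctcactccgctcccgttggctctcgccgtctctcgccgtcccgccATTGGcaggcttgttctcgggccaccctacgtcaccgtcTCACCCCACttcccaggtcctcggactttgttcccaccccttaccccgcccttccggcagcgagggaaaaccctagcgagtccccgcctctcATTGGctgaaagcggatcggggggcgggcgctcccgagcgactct
Idi1: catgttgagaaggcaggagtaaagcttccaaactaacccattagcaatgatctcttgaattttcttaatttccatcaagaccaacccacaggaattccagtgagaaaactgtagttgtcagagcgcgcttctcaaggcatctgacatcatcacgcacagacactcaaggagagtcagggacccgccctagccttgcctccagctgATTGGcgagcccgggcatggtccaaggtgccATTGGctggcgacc
Hsd17b7: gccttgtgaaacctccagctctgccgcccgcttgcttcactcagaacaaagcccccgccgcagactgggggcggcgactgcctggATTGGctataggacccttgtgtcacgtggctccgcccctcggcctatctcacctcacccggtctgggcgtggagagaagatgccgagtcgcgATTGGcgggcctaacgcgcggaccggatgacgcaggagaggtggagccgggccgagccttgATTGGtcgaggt
In these windows CCAAT occurs 3 times in Hmgcs1, 2 times in Idi1 and 3 times in Hsd17b7, and TCACNCCAC once, in Hmgcs1. Of the 25 bright list members 17 matched the promoter table. CCAAT on either strand was in 15 of these 17 (88.2%), against 37.5% of 27025 genes with windows of the same length. GGGCGG, the GC box, was in 88.2% against 35.4%, and TCACNCCAC in 1 of 17 (5.88%) against 1.22%. These matches describe letters, not binding. The comparison genes were not limited to genes bright on these arrays, and the share among bright genes was not computed. Idi1 stood at 1.38, 0.80 and 1.85 against 2.92, 2.71 and 3.78, and Hsd17b7 at 0.29, -0.38 and 0.40 against 1.74, 1.45 and 1.99, both with all IL-10- arrays higher by their brightest probe. For Hsd17b7 the 2 other probes went the other way, at 0.95 and 1.28, and so did the other probe of Hmgcs1, at 0.60.

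Other lists with negative medians among bright genes included heat shock chaperones (-0.82, 15 of 17 below 0), glycolysis and hypoxia (-0.76, 14 of 16), DNA replication (-0.74, 25 of 34), cytosolic ribosomal proteins (-0.66, 57 of 59), oxidative phosphorylation (-0.62, 40 of 50), immediate early genes (-0.56, 17 of 26), ER translocation (-0.47, 30 of 34) and the unfolded protein response (-0.45, 18 of 26). These are medians beside -0.06 for all bright genes, and they were negative in all 22 settings that kept the same probes and with the mean of probes. Quantile normalization brought them closer to 0, to -0.13 for ER translocation (22 of 34 below 0), -0.26 for the unfolded protein response (14 of 26), -0.23 for immediate early genes, -0.37 for ribosomal proteins, -0.41 for oxidative phosphorylation and -0.48 for glycolysis. Array IL-10- HDM 3 carried part of several: without it the ribosomal median was -0.33, oxidative phosphorylation -0.36, DNA replication -0.50, heat shock -0.58, glycolysis -0.55 and the unfolded protein response -0.30. In control mice the same members had medians of 0.05 for ribosomal proteins, 0.14 for oxidative phosphorylation, 0.24 for glycolysis and 0.20 for the unfolded protein response. The control medians were 0.06 for immediate early genes and 0.07 for ER translocation. They stayed negative for DNA replication (-0.25) and heat shock chaperones (-0.17). Array IL-10- HDM 3 also had the highest median level of bright genes, 1.00, against 0.63 to 0.78 on the other HDM arrays. Its part in these medians beyond the values without it was not tested. Negative bright medians were also seen for germinal centre and class switch (-0.58, 5 of 9 below 0) and mitosis (-0.44, 9 of 16). The same held for follicular B cell (-0.36, 7 of 10), TLR and NF-kB (-0.31, 17 of 28) and BCL2 family and p53 targets (-0.27, 10 of 16). Over all 40 measured mitosis genes the median was 0.3, with 25 above 0.

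Values by array show the pattern. The ribosomal stalk gene Rplp1 stood at 2.24, 1.33 and 2.03 against 3.04, 2.89 and 4.12. Hspd1, the mitochondrial chaperonin, stood at 3.02, 2.27 and 2.87 against 3.76, 3.94 and 5.23. In both, all IL-10- arrays were higher and array 3 the highest. Ndufb3 of respiratory complex I stood at 1.57, 1.96 and 1.71 against 3.08, 3.20 and 4.38, while its difference in control mice was 1.00. Pcna, the sliding clamp of DNA replication, was more even among the IL-10- arrays, at 1.43, 1.61 and 1.48 against -0.14, -0.48 and 0.49. Pfkl, a phosphofructokinase, stood at 3.89, 3.30 and 3.62 against 4.67, 4.43 and 5.38. None was called, with adjusted p between 0.231 and 0.333.

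The early response and antigen presentation genes gave mixed pictures. Nr4a1, induced by antigen receptor signals, stood at 0.69, 0.75 and 0.93 against 2.43, 2.02 and 3.19 (difference -1.75, adjusted p = 0.199). Fosb, an AP-1 subunit, stood at -0.24, 0.40 and 1.75 against 2.35, 2.59 and 4.55 (difference -2.53, adjusted p = 0.215). Of the 26 bright immediate early genes 9 were lower and 2 higher at an unadjusted p under 0.05, beside 7.88% and 4.7% of all bright genes, Jun being among the latter at 0.81. In the MHC class II list H2-Ab1 stood at 2.80, 2.73 and 1.80 against 3.60, 3.73 and 5.43, and H2-Eb1 at 0.04, -0.06 and 0.13 against 1.75, 1.17 and 1.09, while H2-Aa differed by -0.07 and the list median was -0.07, or -0.38 with the mean of probes. Blnk, the B cell receptor adaptor, stood at 0.40, 0.61 and 0.46 against 1.99, 1.95 and 2.15 (difference -1.54, adjusted p = 0.138), and the tetraspanin Cd37 differed by -1.39. Tnfrsf13b, the BAFF and APRIL receptor TACI, went the other way, at 5.95, 5.93 and 5.68 against 5.25, 4.46 and 3.61 (difference 1.41, adjusted p = 0.264; 1 of its 2 other probes gave -0.39). Ern1, the ER stress sensor IRE1, stood at 2.33, 2.91 and 2.51 against 0.20, 1.50 and 0.49 (difference 1.85, adjusted p = 0.128) by its brightest probe, while its 2 other probes gave -1.16 and -0.43.

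**Figure D4:**
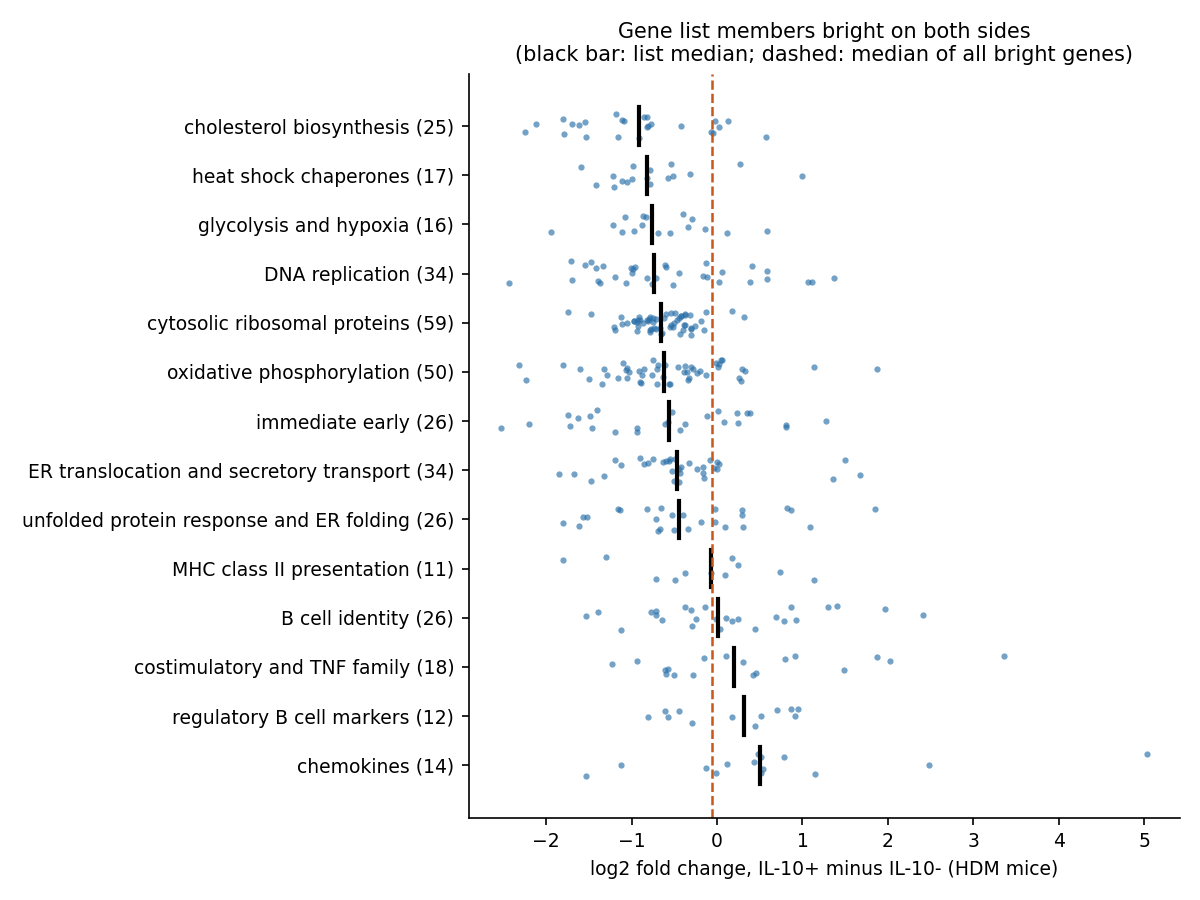
Log2 fold change (IL-10+ minus IL-10-, HDM mice) of each bright member of 14 gene lists, with the list median as a black bar and the number of bright members in brackets. The dashed line is the median of all bright genes, -0.06, and the list medians run from -0.91 for cholesterol biosynthesis to 0.50 for chemokines.

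Markers of other cell types were examined on the same arrays. Of the T cell markers with a probe, 12 of 17 were above background on all IL-10+ and 11 on all IL-10- arrays, among them Cd3e, Cd3g, Cd4, Lck, Zap70 and Thy1. For NK cells these numbers were 6 and 7 of 13, with Gzma, Nkg7, Prf1 and Ncr1 on all 6 arrays, for macrophages 8 and 6 of 19, for dendritic cells 12 and 9 of 17 and for neutrophils 2 and 3 of 14. Some differed in detection by sort. Cd2 of the T cell list, Adgre1 (F4/80) of the macrophage list and Xcr1 of the dendritic cell list were above background on all IL-10+ and no IL-10- arrays. Il7r, Elane and Mcpt8 were above it on all IL-10- and no IL-10+ arrays. The levels of Elane and Mcpt8 nevertheless overlapped between the sides. Elane stood at -5.88, -3.65 and -3.91 on the IL-10+ against -3.57, -4.03 and -3.68 on the IL-10- arrays. Mcpt8 stood at -6.02, -3.45 and -4.1 against -3.53, -3.66 and -3.37. Defining genes above background on no HDM array included Bcl11b for T cells, Eomes, Gzmb, Klrb1c and Klrk1 for NK cells, C1qa, Lyz1 and Ccr2 for macrophages, Itgax and Clec9a for dendritic cells, S100a8, S100a9 and Mpo for neutrophils, and Pf4 and Ppbp for platelets. Other members of the same lists were high on all 6 arrays. Csf3r of the neutrophil list stood at 7.37 to 7.64 and Siglech of the dendritic cell list at 6.07 to 6.54. The T cell list summed to 9.02 to 10.7 on the IL-10+ and 6.33 to 10.6 on the IL-10- arrays, in multiples of the 75th percentile signal. The monocyte list summed to 506 to 531 against 401 to 517, most of it from the Itgam probe, which stood at 8.51 to 8.94 (log2) on all 6 arrays. The neutrophil list summed to 170 to 191 against 166 to 201, and the dendritic cell list to 115 to 139 against 131 to 239. Lists whose sums did not overlap were the platelet list, 6.96 to 7.94 against 3.94 to 5.41, of which Cd9 is a member, and the erythroid list, 19.3 to 24.6 against 38.1 to 46.1. The platelet separation rests on Cd9, at 0.69 to 1.44 (log2) against -4.70 to -2.41, and without Cd9 the sums of the sides overlap. Most of the erythroid sum was Tfrc, the transferrin receptor that dividing cells also carry, at 4.14 to 4.57 against 5.24 to 5.45 by its brightest probe, with its 2 other probes differing by 0.30 and 0.37. The haemoglobin gene Hba-a1 stood at 1.22 on IL-10- HDM array 3 and at -3.63 to -1.95 on the others. The part of these markers in the results above was not tested.

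The control mice give the same sort in other samples, with the IL-10- arrays spread over both slides. In them 4 genes (0.016%) were called, all higher in IL-10+ cells: Lgr4 (3.67), Selplg (3.28), Epb41l1 (3.04) and the transcript ENSMUST00000100326 (4.47), named after their values were seen. Of the 41 genes called higher in HDM mice 33 had a positive difference in control mice, 80.5% against 46.8% of all genes tested. In limma 21 were higher there at an unadjusted p under 0.05, 51.2% against 2.25%. Both contrasts share each gene's estimate of the spread, and a small spread also favours a call in HDM mice. The control p-values of called genes are therefore not an independent check. The median difference of the 41 genes was 4.44 in HDM mice, the contrast that chose them, and 1.27 in control mice. All 8 bright calls were positive in control mice, against 45.7% of all bright genes. In limma 6 of the 8 were higher there at an unadjusted p under 0.05, against 1.84% of all bright genes, and 0 were called. Psmb10 stood at -0.23, -0.25 and -0.28 against -3.40, -3.39 and -2.12 there, a difference of 2.72. Ccl22 differed by 3.54, Il1rn by 2.45, Treml2 by 2.21, Epsti1 by 1.23 and Kynu by 0.99. For Il10 the control difference was 6.56, for Cd9 4.80, for Jchain 6.46 and for Csf2rb2 3.89. Floor calls were positive in 18 of 25 (72%), beside 46.8% of all genes tested, with Ikzf4 at 0.71, Gin1 at 0.22, Ccdc32 at -1.22 and Tsen54 at -0.63.

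**Figure D5:**
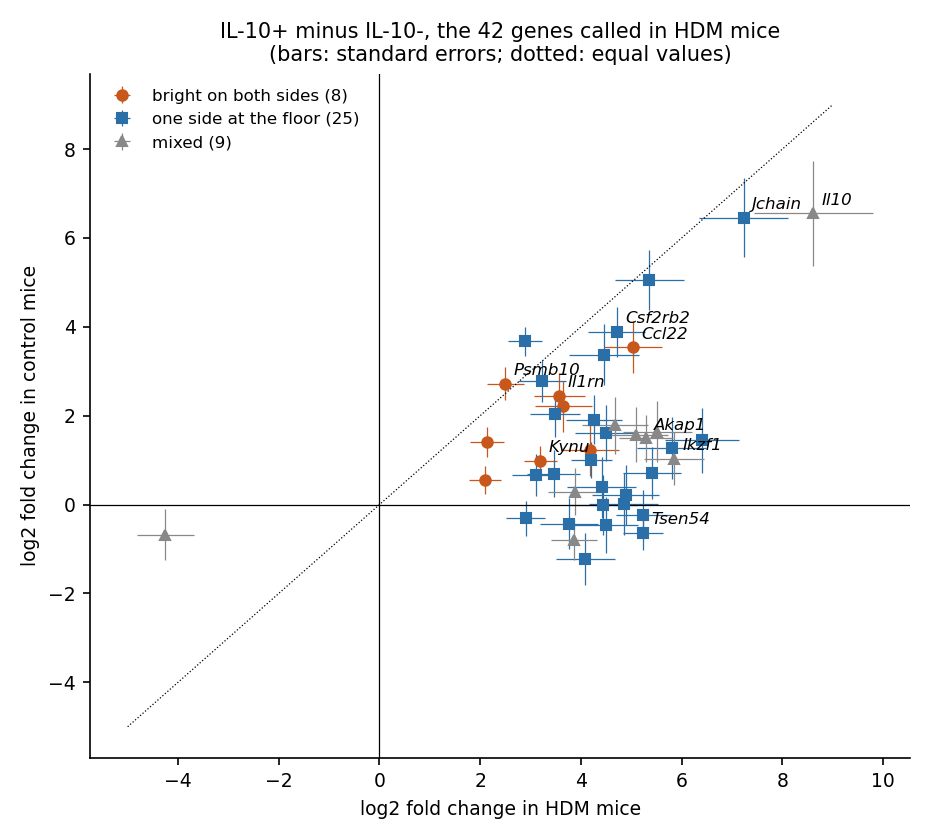
Log2 fold change between IL-10+ and IL-10- cells in HDM mice (horizontal) and control mice (vertical) for the 42 genes called in HDM mice, with standard errors. Psmb10 (2.50 in HDM and 2.72 in control mice) lies near the dotted line of equal values, while Il10 (8.61 and 6.56), Kynu (3.19 and 0.99) and Tsen54 (5.23, a value against undetected arrays, and -0.63) lie below it.

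The difference of the sort contrast between HDM and control mice was called for Tsen54, Gspt2 and the transcript ENSMUST00000100326, 3 genes (0.012%), with 1611 at an unadjusted p under 0.05 (6.46%). Tsen54 was 1 of the 3, at 0.47, -0.08 and 0.60 on the IL-10+ control arrays and 1.46, 1.16 and 0.26 on the IL-10- control arrays. The IL-10+ values of HDM and control mice overlapped, and the IL-10- HDM arrays stood apart at -4.80, -4.90 and -4.59. For Kynu the difference between HDM and control mice was not called (unadjusted p = 0.000758, adjusted p = 0.446), nor was that for Il10 (adjusted p = 0.789) or Cd9 (adjusted p = 0.908).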

How the data were processed

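Per the labels, mRNA isolated on magnetic beads was amplified as cDNA by PCR and 250 ng labelled with Cy3. Per the file headers, arrays of Agilent design 028005 (annotated on mm9) were scanned and quantified by Agilent Feature Extraction, version 10.7.3.1, and the deposited intensity in the processed signal column is background-subtracted and not normalised between arrays. The deposited mean and background signals are also an intensity. Per the file headers, the deposited flags per spot (above background, outlier, saturated) are other values. The value table the authors deposited is a ratio, the processed signal over the array's median gene spot. This was found by recomputation, with a largest deviation of 0.00077%.

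Here levels are log2 processed signals of gene spots after subtracting each array's 75th percentile. Of 55681 probes, 37727 were well above background on at least 3 of 12 arrays, and 84 of them were left out as outliers. The probe with the highest mean stood for each of 24939 genes, of which 10736 have no symbol. limma 3.58.1 (R 4.3.3) fitted 4 group means over all 12 arrays, with 8 residual degrees of freedom and Benjamini-Hochberg adjustment over all genes; the code was tested on simulated data. Arrays give no counts, so their number limits the precision. Bounds use, per IL-10- array, the higher of the lowest signal above background and the probe's own. Probe coordinates are those of the files, without exon annotation. Alternatives were another background correction, scaling, filter, probe rule, variance model, slide or replicate block, and leaving out each array.

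Members and the 38 gene lists (926 symbols) were chosen with earlier results of these data known. Named genes are Il10 and Cd9; up to 12 bright genes a side by fold if called, then by p; up to 12 higher and 8 lower called genes that were dim on the lower side; called members and up to 3 bright members of smallest p from lists; and genes called for the difference between mice. These skip genes without a symbol and those with overlapping sides in the first 2 steps. Other list members named beside them, and genes said to be so, were chosen after their values were seen. Some genes that these rules would name are not reported here.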

Additional observations from a re-analysis of the deposited data

Results flagged for a closer look

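For 3 genes the difference between IL-10+ and IL-10- cells differed between HDM and control mice in limma's test of that difference. These differences involve undetected signals, so their sizes are not exact. For Tsen54 the fitted difference was 5.86 (adjusted p = 0.0253). No IL-10- HDM array was above background, so the sort contrast in HDM mice is given as at least 26.2-fold (log2 4.71), and it was -0.63 in control mice. For Gspt2, a translation termination factor, the fitted difference was 6.60 (adjusted p = 0.0467). No IL-10- HDM array was above background, so the HDM contrast is at least 4.02-fold (log2 2.01). Its IL-10+ arrays stood at -2.07, -2.86 and -1.80 in HDM mice and at -4.72, -4.31 and -5.90 in control mice. The transcript ENSMUST00000100326 differed by -4.62 (adjusted p = 0.0313): it stood at -1.26, -1.06 and -0.98 on the IL-10+ control arrays and was above background on no HDM array.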

How the results depend on the processing

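Without 1 array at a time, limma called 5 to 211 genes in HDM mice in place of 42, 1 to 56 bright genes in place of 8, 2 to 45 floor genes in place of 25, and 0 to 14 genes for the difference between mice in place of 3. With classes from the 5 HDM arrays other than IL-10- HDM 3, a setting chosen after seeing the data, 2 bright and 7 floor genes were called. All genes together numbered 24 with normexp, 7 in the deposited value table, 77 with the 75th percentile over detected probes and 2 among probes above background on all 6 HDM arrays. Bright calls numbered 5 after quantile normalization, 0 in the value table (105 higher and 3684 lower at an unadjusted p under 0.05), 18 with detected probes, 2 among probes above background on all 6 arrays and 14 with an intensity trend. Floor calls numbered 5 with normexp, 4 in the value table, 41 with detected probes, 11 with signals raised to the floor and 40 with only the 6 HDM arrays. The difference between mice gave 1 gene with the trend and 0 with normexp, quantile normalization, the value table, the filter on all 6 arrays, or the mean of probes (1128 to 2038 at an unadjusted p under 0.05). With slide as a block all of these counts were 0 (2017 genes at an unadjusted p under 0.05, and 1687 for the difference). A replicate block also gave 0 in each (3716 and 1903). Whether the replicate numbers pair the arrays is not known, and the main fit did not pair them. Same-numbered deviations correlated at 0.0186 to 0.067 in HDM mice and at 0.0329 to 0.149 in control mice. In each of these, 5 of 6 arrays correlated best with their own number, a hint from the data and not the design. The 42 called genes kept their sign in these settings, apart from Tsen54 under the filter on all 6 HDM arrays, which left 10 of the 42 and where its other probe gave -0.67 (-0.48 for the difference between mice). Other signs turned for genes not called: in the value table Cd1d1 to -0.09, Havcr1 to -0.28, Il10rb to -0.20, Socs1 to -0.11 and Nfkb1 to -0.06. With the slide block Il10rb turned to -0.26 and Nusap1 to -1.02. With the mean of probes Notch2 turned to 0.61, Nfkb1 to -0.18, Tpi1 to 0.08 and Hsd17b7 to 0.20. ENSMUST00000100326 turned to 0.30 with detected probes, 0.29 with raised signals, 0.05 with slide and -0.44 to 0.19 without 1 array. The cause of these turns was not tested.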

Other observations

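Values of 3 further genes with no IL-10- HDM array above background are given here, chosen after they were seen. Hrh2, the histamine H2 receptor, stood at -2.77, -1.92 and -0.46 on the IL-10+ HDM arrays, and was at least 5.79-fold higher (adjusted p = 0.0259). In control mice its difference was 1.61. Lgr4, a receptor for R-spondins, stood at -3.89, -3.29 and -3.27, at least 1.70-fold above the limit (adjusted p = 0.0127). It was also called in control mice, where the difference was 3.67 (adjusted p = 0.00619). Csf1, the macrophage colony-stimulating factor, was not called in HDM mice, at -3.84, -2.54 and -0.08 on the IL-10+ arrays, and its difference in control mice was -4.13.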
